A study of Mus musculus with 4 samples.

Results

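The data describe 284 mouse genes whose array name is Zfp followed by 3 digits, the numbered zinc finger protein genes, in NIH3T3 cells that express either of 2 forms of the epidermal growth factor receptor EGFR. The rule that picks the members uses the name and no measured value, although the group of genes was proposed with earlier results of these data known. They were read by 442 of the array's 55681 gene probes and make up 284 of its 34821 gene names. NIH3T3 is an established line of mouse embryonic fibroblasts, and EGFR is a receptor tyrosine kinase that drives growth when activated and is mutated in some lung cancers. Group 1 was NIH3T3 cells with wild-type EGFR (2 arrays), and group 2 was NIH3T3 cells with a deletion mutant of EGFR (2 arrays). All cells were untreated and were sampled at steady state. The labels do not say which part of the receptor was deleted, from which species it came, or whether each line was a single clone. The submitters describe separate T7-cDNA preparations for each sample and no separate cultures, so every p-value measures the spread between arrays, which may be technical. The 4 arrays lay on 1 slide with the groups at different array positions, so position and group cannot be told apart.

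Most proteins of this kind carry rows of C2H2 zinc fingers, short loops held by a zinc ion that read DNA bases, joined by a conserved linker. Many also carry a KRAB domain, which recruits the corepressor TRIM28 (KAP1) and, through it, the H3K9 methyltransferase SETDB1, HP1 proteins and DNA methylation to silence retrotransposons, imprinted genes and some tissue-specific genes. Their genes arose largely by tandem duplication and lie in clusters. The name is a catalogue number, however, and the same list holds developmental regulators, general transcription factors and proteins that bind RNA or ribosomes.

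The repeated fingers are visible in the probes themselves, which matters here because a probe in a repeated part could read a related gene. A probe was taken to read a finger linker where it held a codon run for the linker's shared residues. Of the 442 member probes, 8 (1.81%) held it, against 30 (0.0539%) of all gene probes. The following probes show it, with the linker run in capitals. The Zfp931 probe lies at chr2:177802400-177802459 on the minus strand and the Zfp936 probe at chr7:50445732-50445791 on the plus strand of mm9, the build of the array files.
Zfp931: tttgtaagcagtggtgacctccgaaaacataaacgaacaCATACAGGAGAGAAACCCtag
Zfp936: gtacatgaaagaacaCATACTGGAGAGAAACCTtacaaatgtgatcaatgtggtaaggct
The remaining member probes lacked the run. Only 9 member probes matched a probe of another name at 50 or more of their 60 bases. None of the 7 tested genes they served passed the test, so without them 127 of 236 genes passed. Probes were compared with other array probes and not with transcripts, so whether they read related genes was not tested.

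Between 42.9% and 46.9% of the gene probes were well above background on each array, and no spot was saturated. The arrays of a group correlated at 0.998 for wild-type and 0.997 for deletion-mutant cells, and arrays of different groups at 0.960 to 0.961, over all features. Of 10 fibroblast markers all were measured. In the deletion-mutant cells 7 were lower and 1 was higher (24.2% and 34.6% of all features), with a median of -0.75. Of 7 epithelial markers 2 were measured: Krt8 passed as higher but was well above background in deletion-mutant cells alone, and Krt14 was lower (-0.42). Of 6 leukocyte markers 3 were measured, with Itgam lower (-0.92), and of 5 endothelial markers 2, with Pecam1 lower (-0.40). The brightest probe of mouse Egfr was well above background in wild-type and on neither array of deletion-mutant cells, at least 11.5-fold lower (limma, adjusted p = 0.000146). Since the species of the introduced receptor is not in the labels, this does not check them. The part of these differences in the Zfp results was not tested.

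Of the 284 genes, 243 had a probe bright enough to test, and 41 did not. A gene was tested through its brightest probe among those that both wild-type or both deletion-mutant arrays showed well above background. That left 232 genes well above background on all 4 arrays and 11 that entered through the wild-type arrays alone. None entered through the deletion-mutant arrays alone. Levels below are log2 signals relative to each array's 75th percentile, and differences are deletion-mutant minus wild-type, with the standard error of the limma fit. "Passed" means an adjusted p under 0.05 over all 18093 features.

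The numbered Zfp genes changed about as often as other genes, by smaller amounts, and more often downward. In all, 127 of 243 (52.3%) passed, against 58.8% of all features. Of these, 44 were higher in deletion-mutant cells (18.1%, against 34.6% of all features) and 83 were lower (34.2%, against 24.2%). Among the 232 genes well above background on all 4 arrays, 44 were higher and 77 lower. Changes of at least 2-fold were seen for 2 rises and 13 falls, or 6.17% of the members against 13.4% of all features (5.94% higher and 7.46% lower). Of the 13 falls, 10 were in genes well above background on all 4 arrays, and for 3 others the measured fall exceeds the bound given below. The median difference was -0.11 for the members and 0.07 for all features, and 59.3% of the members lay below 0 against 44.4%. The members' differences had an SD of 0.50, and those of all features 0.83. Within 0.5 of 0 lay 72.0% of the members and 62.1% of all features. The members were also dimmer, with a median level of 0.29 against 1.06 for all features. The part of signal level in these comparisons was not tested. Both arrays of a group lay above both of the other for 199 members (81.9%), against 81.7% of all features. Groups without overlap, mentioned for genes below, therefore set no gene apart.

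**Figure D1:**
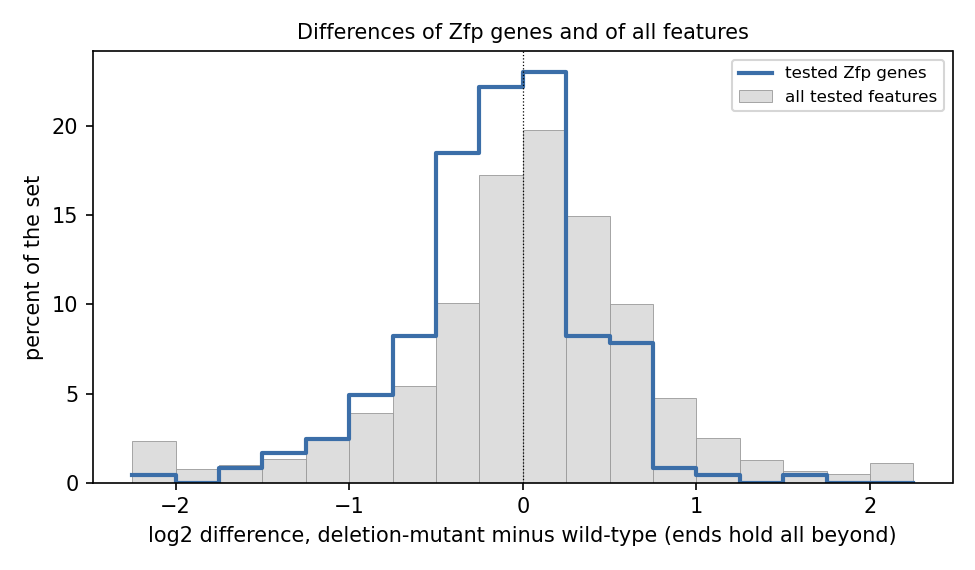
Distribution of log2 differences, deletion-mutant minus wild-type, in bins of 0.25: grey bars give the percent of all 18093 tested features and the blue line the percent of the 243 tested Zfp genes. The Zfp genes sit nearer 0 (72.0% within 0.5, against 62.1%) and their median of -0.11 lies below that of all features, 0.07.

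The side of 0 on which these small differences fall depends on how the arrays are scaled. With median scaling the members split 83 higher to 50 lower, with the 75th percentile of detected probes 23 to 121, with E1A spike-in probes 69 to 68, and with quantile normalization 40 to 96. The shares of all features moved too: 48.1% higher and 17.4% lower with median scaling, 23.6% and 37.2% with detected probes, 39.9% and 20.7% with spike-ins, and 29.2% and 28.0% with quantiles. The members' median lay 0.18 below that of all features, a gap that scaling by a single constant per array cannot change, and 0.13 below with quantiles. With median scaling the members' own median was above 0 (0.07).

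**Figure D2:**
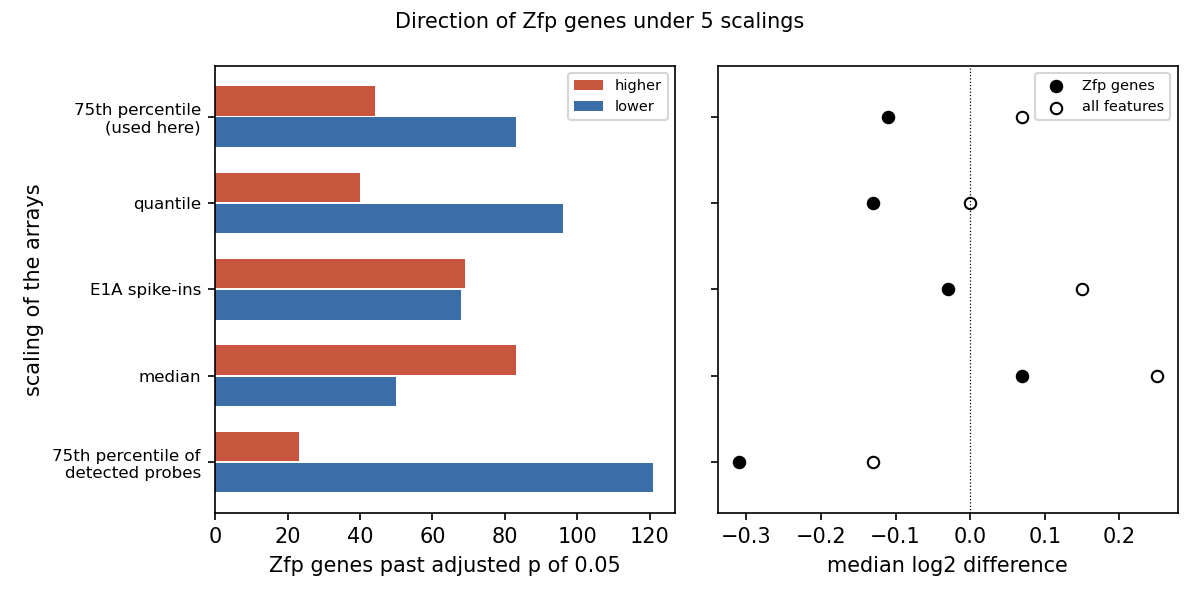
Left, numbers of Zfp genes past an adjusted p of 0.05, higher (red) or lower (blue) in deletion-mutant cells, under 5 scalings of the arrays; right, the median log2 difference of the tested Zfp genes (filled) and of all features (open). The split runs from 83 higher and 50 lower to 23 higher and 121 lower, and the filled point lies left of the open point in each row, by a gap that differs only with quantiles.

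The largest fall was that of Zfp503, a transcriptional repressor of the NET family that acts in limb, brain and mammary development. Its levels were 2.68 and 2.61 in wild-type and 0.54 and 0.55 in deletion-mutant cells. Both wild-type arrays stood far above both deletion-mutant arrays, a fall of 4.29-fold (-2.10 ± 0.0598, adjusted p = 0.000241), and its other probe fell by 1.86. Zfp467, which favours fat over bone fate in stromal precursors, was at 1.34 and 1.44 in wild-type and at -0.49 and -0.17 in deletion-mutant cells. It was 3.29-fold lower (-1.72 ± 0.128, adjusted p = 0.00123), and all 4 of its probes fell, by 1.04 to 1.72. Zfp521, a regulator of blood, neural and mesenchymal precursors that opposes fat formation, had levels of 1.73 and 1.86 against 0.31 and 0.49. The 2 groups did not overlap, and the difference was -1.40 ± 0.0922 (2.64-fold, adjusted p = 0.000954), with both of its probes lower.

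Less studied genes made up the rest of the large falls. Zfp108, of a Zfp cluster on chromosome 7, was at -1.16 and -1.19 in wild-type and at -2.81 and -2.60 in deletion-mutant cells, 2.88-fold lower. Zfp949 was at 1.90 and 1.74 against 0.32 and 0.37, 2.78-fold lower, with 2 of 2 probes falling. Zfp287 was at 0.12 and 0.37 against -1.10 and -1.14, 2.57-fold lower. In each of the 3 the lowest wild-type array stood more than 1 log2 unit above the highest deletion-mutant array. Zfp366, a corepressor of nuclear receptors known from dendritic cells, fell 2.15-fold, Zfp935 fell 2.12-fold, Zfp672 fell 2.03-fold and Zfp784 fell 2.01-fold (adjusted p from 0.000661 to 0.00204 over the genes of this paragraph).

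**Figure D3:**
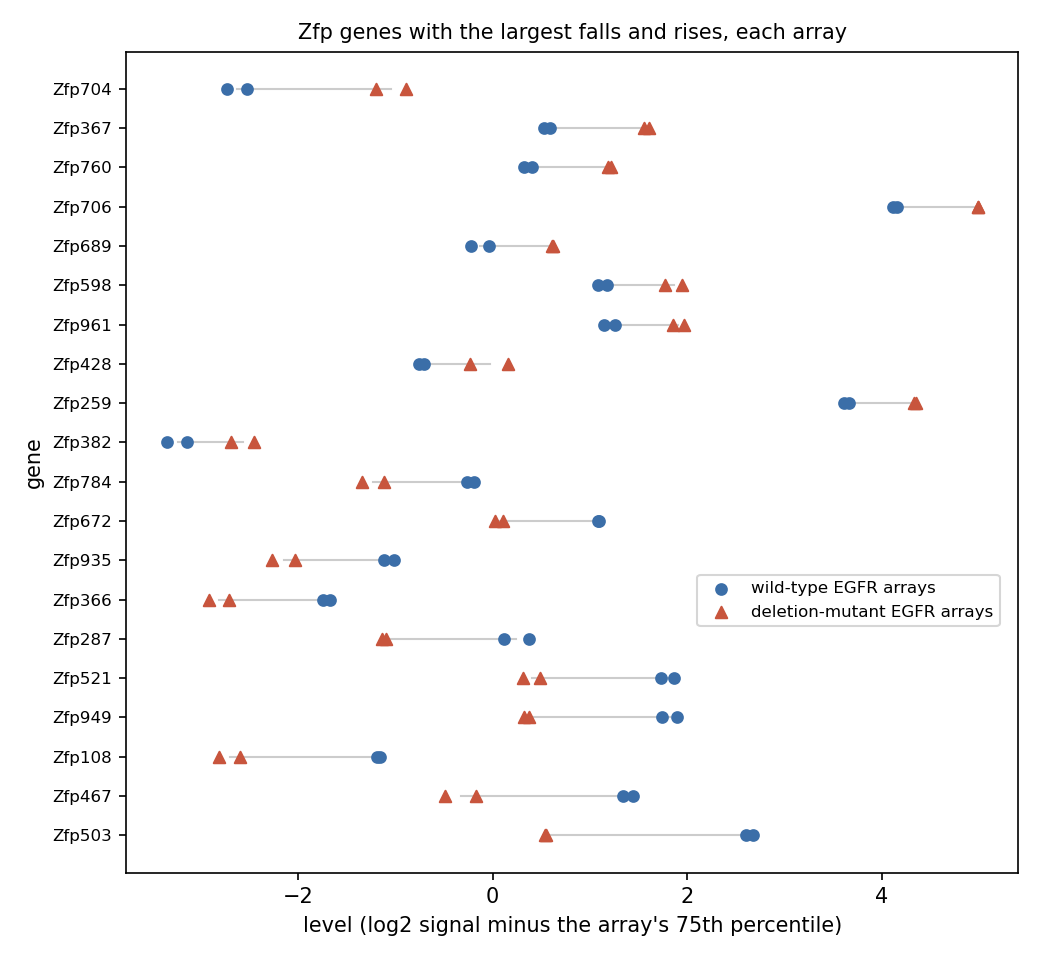
Level of each gene on each array (log2 signal minus the array's 75th percentile) for the 10 largest falls and 10 largest rises among Zfp genes well above background on all arrays: circles, wild-type EGFR; triangles, deletion-mutant EGFR; grey lines join the group means. The groups do not overlap for any of these genes, as the rule for choosing them required, from Zfp704 at the top (1.59) to Zfp503 at the bottom (-2.10); levels of different genes come from different probes and are not comparable.

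Rises were fewer and smaller. Zfp704, a paired-finger protein known as a target of GLI signalling, was at -2.73 and -2.53 in wild-type and at -0.89 and -1.20 in deletion-mutant cells. Both deletion-mutant arrays lay above both wild-type arrays by more than 1 log2 unit, a rise of 3.01-fold (1.59 ± 0.137, adjusted p = 0.00167). Zfp367 had levels of 0.59 and 0.53 against 1.61 and 1.56, a rise of 2.03-fold (1.02 ± 0.0604, adjusted p = 0.000772). Its other probe moved the opposite way, from -1.29 and -1.23 to -1.60 and -1.74 (-0.41 ± 0.0773, limma on every probe, adjusted p = 0.0144), so the direction holds for the brighter probe only. Zfp706, a small protein linked to the control of translation in stem cells, was at 4.12 and 4.16 against 4.99 and 4.99, 1.80-fold higher on its brightest probe, and both of its probes rose.

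The gene on the array as Zfp259, now Zpr1, encodes a protein known to bind the inner part of EGFR and to move to the nucleus after growth factor treatment. It was at 3.61 and 3.66 in wild-type and at 4.33 and 4.35 in deletion-mutant cells. The arrays of each group differed by far less than the groups did, and the rise was 1.63-fold (0.70 ± 0.0567, adjusted p = 0.00144), with both probes higher. Zfp760 (1.80-fold), Zfp689 (1.68-fold), Zfp598 (1.66-fold), Zfp961 (1.63-fold), Zfp428 (1.63-fold) and Zfp382 (1.60-fold) also rose, with adjusted p from 0.00119 to 0.0172.

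In 5 genes the probe was well above background on both wild-type arrays and on neither deletion-mutant array, so only a bound on the fall can be given. The bound sets the wild-type mean against, on each deletion-mutant array, the higher of the dim probe's signal and the lowest signal of a probe well above background. Zfp455 was at least 1.92-fold lower, Zfp709 at least 1.85-fold, Zfp839 at least 1.44-fold and Zfp759 at least 1.41-fold (adjusted p from 0.00289 to 0.0155). For Zfp458 the bound was 1.59-fold and the gene did not pass (adjusted p = 0.12). Of the 5, Zfp455, Zfp458 and Zfp759 are neighbours on chromosome 13.

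Of the 86 genes with more than 1 usable probe, 64 had all probes on the same side of 0. Tested probe by probe, 175 of 347 member probes passed (50.4%), against 56.7% of all probes tested. Apart from Zfp367, only Zfp207, which stabilises the spindle checkpoint protein BUB3, had probes that passed in opposite directions, from -0.38 to 0.38.

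Read by known role, the members did not move as a block. Of the 8 tested genes listed as silencers of repeats or imprinted genes, 4 were lower and none was higher (24.2% and 34.6% of all features), with a median of -0.24. Zfp445, which maintains imprints, was at 1.53 and 1.48 against 1.14 and 1.22 (-0.33 ± 0.0637). Zfp568, which represses a placental transcript of Igf2, was at -0.17 and 0.02 against -0.39 and -0.44 (-0.34 ± 0.0851). Zfp433 (-0.36) and Zfp600 (-0.35) were the other members that passed. The wild-type arrays lay above the deletion-mutant arrays in each of these 4 genes by a small margin, and with median scaling none of the 4 passed. Leaving out a single array left between 0 and 2 of the list lower.

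Cell fate regulators held the widest changes: of 11 tested, 3 were higher and 4 lower, with differences from -2.10 for Zfp503 to 1.59 for Zfp704 and a median of 0.14 (34.6% of all features were higher and 24.2% lower). The count of higher genes rested on small differences: it was 6 with median scaling and 1 with quantiles, with detected probes, without a filter on dim probes, or without either wild-type array. Zfp703, the close relative of Zfp503 and an oncogene of luminal breast cancer, was at 4.11 and 4.10 against 4.39 and 4.37, a difference of 0.27 that passed here but not with quantiles (0.05), with detected probes (0.08) or with any single array left out. Zfp423, the preadipocyte regulator related to Zfp521, was at -2.82 and -3.08 against -2.57 and -3.33, and its groups overlapped.

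Among 13 genes that act on RNA, ribosomes or cell division, 6 were higher and 1 lower (34.6% and 24.2% of all features), with a median of 0.25. Zfp706 is described above. Zfp598, the ubiquitin ligase that marks collided ribosomes, was at 1.08 and 1.18 against 1.95 and 1.77. Zfp593, which acts in the assembly of the large ribosomal subunit, was at 0.95 and 0.94 against 1.53 and 1.50 (0.57 ± 0.0554). Zfp668, linked to DNA repair, was at 1.74 and 1.82 against 2.21 and 2.19 (0.42 ± 0.0617). All 3 had deletion-mutant arrays above the wild-type arrays without overlap, and 81.7% of all features had groups without overlap. With median scaling the count was 10 higher and 0 lower, without a filter on dim probes 3 and 0, and leaving out any single array left 0 lower.

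General transcription factors went both ways, with 6 of 16 higher (37.5%) and 4 lower (25.0%) and a median of 0.11, shares close to the 34.6% and 24.2% of all features. The 6 became 2 without either wild-type array or with detected probes, and 1 without a filter on dim probes, where 2 were lower. Zfp217, an oncogene amplified in breast cancer, was at 1.68 and 1.63 against 2.30 and 2.27 (0.63 ± 0.0573). Zfp131, a partner of the methyl-DNA binding protein Kaiso, was at 1.88 and 2.14 against 2.67 and 2.61 (0.63 ± 0.106). Both rose without overlap between the groups, which was also absent for 81.7% of all features. Zfp395 fell from -0.34 and -0.32 to -1.24 and -0.99 (-0.79 ± 0.103), and Zfp532, of the chromatin complex with Zfp592 and Zfp687, from 0.36 and 0.49 to -0.30 and -0.21 (-0.68 ± 0.0764). Within that complex Zfp592 was lower (-0.42), and Zfp687 (0.39) passed here but not with quantiles, with detected probes or without either wild-type array.

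The shared partners of KRAB zinc finger proteins moved upward where they moved. Of 19 tested cofactors 11 were higher and none was lower (34.6% and 24.2% of all features), with a median of 0.34. Trim28 itself was at 4.75 and 4.74 in wild-type and at 5.07 and 5.11 in deletion-mutant cells, 1.26-fold higher (0.34 ± 0.0558, adjusted p = 0.00864), though it did not pass with quantiles (0.10), with detected probes (0.14) or without wild-type replicate 2 (adjusted p = 0.0502). Uhrf1, which guides DNA methylation to replicated DNA and is a cell cycle gene, was at 4.11 and 4.15 against 5.32 and 5.28, 2.25-fold higher. Dnmt1, the maintenance methyltransferase, was 1.93-fold higher, from 0.77 and 0.90 to 1.76 and 1.81. In all 3 the groups stood clear of each other, as for 81.7% of all features. Mphosph8 of the HUSH silencing complex (0.73) and Morc3 (0.52) rose as well, while Setdb1 (0.18) and Atf7ip (-0.05) did not pass. With the 75th percentile of detected probes 1 cofactor was lower, and with median scaling 17 were higher.

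**Figure D4:**
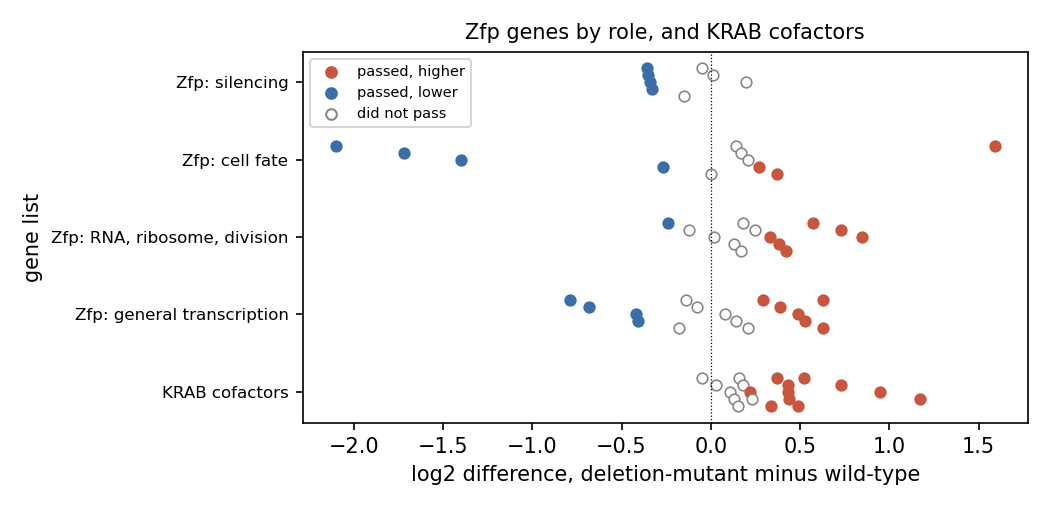
Log2 differences, deletion-mutant minus wild-type, of the tested genes in 4 role lists of Zfp genes and in the list of KRAB cofactors; red, passed and higher; blue, passed and lower; open, did not pass; vertical offsets only separate points. Fate regulators spread from -2.10 to 1.59, and 11 of 19 cofactors passed, all to the right of 0.

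Other zinc finger genes, grouped by name, gave counts for comparison, with no test between groups. Of all features 34.6% were higher and 24.2% lower. Of 41 Zfp genes with 1 or 2 digits, 6 were higher and 16 lower (14.6% and 39.0%), with a median of -0.19. Of 15 with 3 digits and a letter, 2 were higher and 7 lower (13.3% and 46.7%). Genes named Zscan (0 higher and 3 lower of 6) and Zkscan (0 and 4 of 7), whose proteins carry SCAN domains beside their fingers, were lower where they passed. Genes named Zc3h, whose fingers mostly bind RNA, were 8 higher and 1 lower of 16, and Zbtb genes 10 higher and 8 lower of 35.

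Along the chromosomes, 138 of the 283 genes with a position lay in 21 clusters, defined as runs of at least 3 members with neighbours within 500 kb. In clusters, 14 of 118 tested genes were higher (11.9%, against 34.6% of all features) and 45 lower (38.1%, against 24.2%), with a median of -0.16. Outside, 30 of 125 were higher (24.0%) and 38 lower (30.4%), with a median of -0.03. Among genes well above background on all 4 arrays the counts were 14 higher and 40 lower of 111 inside, and 30 and 37 of 121 outside. The clusters differed among themselves: 10 held falls alone, 1 held a rise alone, 7 held both and 3 held neither. Other features inside the same intervals were 41 higher and 63 lower of 200, while of all features 34.6% were higher and 24.2% lower. The downward tilt in these intervals was thus not limited to the members. With median scaling the genes in clusters were 32 higher and 29 lower.

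Signs of neighbours were compared with those of other pairs, without a test of the difference. Of 108 linked neighbouring pairs, 69 (63.9%) had the same sign, against 51.5% of all pairs of members; with median scaling the share of linked pairs was 52.8%. Sharing a side of the members' own median, a measure that a constant per array cannot move, was seen for 60 pairs (55.6%), against 49.8% of all pairs. The exact binomial 95% interval of that share, 45.7% to 65.1%, holds the share of all pairs, and without wild-type replicate 1 the share was 50%. That measure was added after the values were seen. For the same-sign share the interval was 54.1% to 72.9%, which does not hold the 51.5% of all pairs. Pairs of 1 cluster share genes and are not independent, so neither interval serves as a test.

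**Figure D5:**
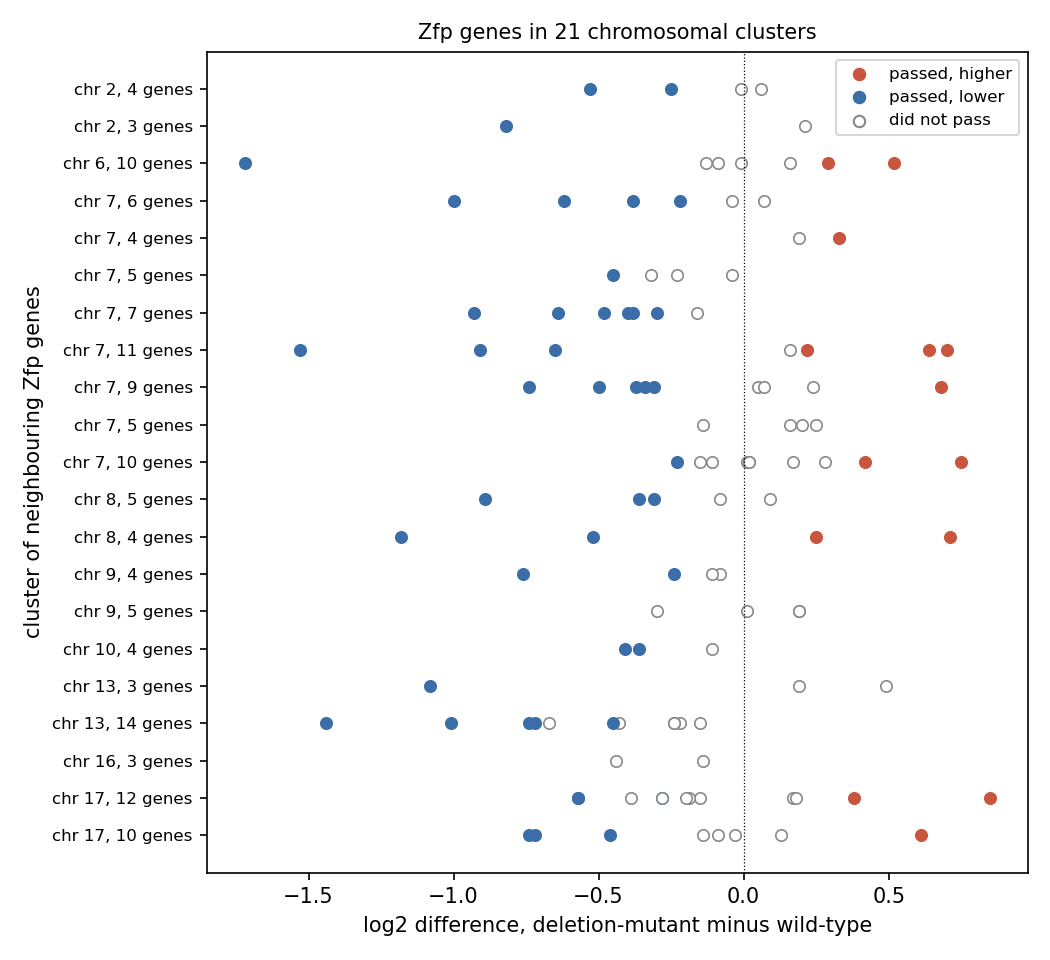
Log2 difference of each tested gene (deletion-mutant minus wild-type) in the 21 clusters, 1 row per cluster with its chromosome and its number of genes; red, passed and higher; blue, passed and lower; open, did not pass. All 11 points of the 14-gene cluster on chromosome 13 and all 7 of the 7-gene cluster on chromosome 7 lie left of 0; 4 and 1 of them were tested through the wild-type arrays alone.

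The largest cluster, on chromosome 13 at 67139715 to 67927746 (mm9), holds 14 members, and 11 of them have a synonym that begins with Rsl. Rsl genes, the regulators of sex limitation, encode KRAB zinc finger proteins that repress male-biased genes of the liver. Of these 11 members only Zfp429 has the name of such a gene, Rsl2, while the others have Rslcan synonyms. Whether the others share that function was not tested. Among all features 44.4% lay below 0, with 24.2% lower and 34.6% higher. All 11 tested genes of the cluster lay below 0, with a median of -0.45, and 5 were lower and none was higher. Of the 11, Zfp455, Zfp458, Zfp759 and Zfp708 were tested through the wild-type arrays alone, a choice that favours a fall. The 7 others, well above background on all arrays, also lay below 0, with a median of -0.43 and 3 lower. Zfp457 was at 1.28 and 1.14 in wild-type and at 0.46 and 0.52 in deletion-mutant cells (-0.72 ± 0.0753, adjusted p = 0.00256). Its other usable probe moved by only -0.08 and did not pass when probes were tested singly. Zfp595 was at -0.26 and -0.48 against -1.08 and -1.13 (-0.74 ± 0.0946, adjusted p = 0.00425). Zfp429, which is Rsl2, was at -0.18 and -0.30 against -0.65 and -0.72 (-0.45 ± 0.0733, adjusted p = 0.00841). The groups did not overlap in any of the 3, as for 81.7% of all features. Zfp455 and Zfp759, with the bounds given above, were the others that passed. Zfp458, Zfp712, Zfp273, Zfp748, Zfp953 and Zfp708 had differences between -0.67 and -0.15 and did not pass. Of 13 other features in the interval, 9 were lower and 1 higher, with a median of -0.54. They include Rsl1 (-0.58 ± 0.0829, adjusted p = 0.00582), Zfp58 (-0.55) and Zfp874b (-0.86), which are related genes outside the 3-digit names. Of 11 members, 8 were lower with the 75th percentile of detected probes and 3 without a filter on dim probes.

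A 7-gene cluster on chromosome 7 at 13000911 to 13569621 (mm9) also had every tested member below 0, with 6 of 7 lower and a median of -0.40. For comparison, 44.4% of all features lay below 0, and 24.2% passed as lower and 34.6% as higher. Zfp551 was at 0.07 and 0.37 against -0.44 and -0.39 (-0.64 ± 0.116, adjusted p = 0.0116). Zfp329 was at 2.19 and 2.18 against 1.83 and 1.74 (-0.40 ± 0.0633, adjusted p = 0.00778). Zfp110 was at 0.95 and 1.02 against 0.70 and 0.67 (-0.30 ± 0.0592, adjusted p = 0.0138). These differences were small but larger than the spread within groups. Zfp324 (-0.93), Zfp446 (-0.48) and Zfp128 (-0.38) passed too, and Zfp606 (-0.16) did not. The other usable probe of Zfp446 moved by 0.03 and did not pass when probes were tested singly. Zfp324 was tested through the wild-type arrays alone; of the 6 others 5 were lower, with a median of -0.39. Of 4 other features in that interval none was lower and 1 was higher. With median scaling, or without either wild-type array, 3 of the 7 were lower, and without a filter on dim probes none was.

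In a 9-gene cluster of chromosome 7, at 30614327 to 30946346, 5 genes were lower and 1 was higher (24.2% and 34.6% of all features). Zfp383 was at -1.78 and -1.57 against -2.38 and -2.46 (-0.74 ± 0.0951), while its neighbour Zfp382 rose from -3.35 and -3.14 to -2.45 and -2.69. The rise of Zfp382, a dim gene, did not pass with normexp background correction or without a filter on dim probes. With quantiles, median scaling or spike-ins 2 genes of the cluster were higher. Zfp420 (-0.50), Zfp566 (-0.37), Zfp568 (-0.34) and Zfp260 (-0.31) were lower, Zfp146 (0.07), Zfp790 (0.05) and Zfp940 (0.24) did not pass. In a 6-gene cluster at 4871046 to 5005178, 4 genes were lower, namely Zfp784, described above, Zfp579 (-0.62), Zfp865 (-0.38) and Zfp524 (-0.22). Zfp628 (-0.04) and Zfp580 (0.07) did not pass. With median scaling, or without a filter on dim probes, 2 genes were lower in each of these clusters, and the 5 of the 9-gene cluster were also 2 without wild-type replicate 2. The rise in the 9-gene cluster was lost without wild-type replicate 1.

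Promoters of the members, taken from RefSeq (GRCm38.p6), showed a word shared by most genes of the chromosome 13 cluster and of the 9-gene cluster. The windows run from 250 bases before to 50 after a gene's start, and 229 members had 278 of them. They were rich in CpG, with a median of 16 per window against 7 in all 32817 windows. The word GGGA, any 2 bases, then TGTAGT, part of the known binding pattern of ZNF143, was searched on both strands after it had been noticed by eye in promoters of the chromosome 13 cluster. It stood in 14.7% of the members' windows and in 1.81% of all windows. In the chromosome 13 cluster 13 of 14 genes had it, in the 9-gene cluster of chromosome 7 it was found for 7 of the 8 genes with a window, and in the 7-gene cluster for 2 of 6. None of 4 genes of the 6-gene cluster had it. It was also found for 5 of 8 genes of an 11-gene cluster on chromosome 7, in which 3 genes were higher and 3 lower, so the word was not limited to clusters of falls. In all, 6 of the 21 clusters held a gene with the word. Tandem copies share sequence by descent, so these genes are not independent cases. The ETS word CCGGAAG, on both strands, stood in 20.5% of the members' windows and in 8.86% of all. In all 10 words were searched on both strands. The GC box GGGCGG (47.1% against 35.6%), the YY1 word AAGATGG (8.63% against 6.34%), the E2F word GCGGGAA (7.91% against 4.60%), the E-box CACGTG (7.91% against 7.15%), the CRE (4.32% against 1.79%) and the NRF1 palindrome (3.24% against 0.966%) stood in more of the members' windows than of all windows. The AP-1 word TGACTCA (3.60% against 5.20%) and TATAAA (7.55% against 13.6%) stood in fewer. No difference between these shares was tested.

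The 250 bases before the start of 4 genes of the chromosome 13 cluster and of 2 lower genes of the 9-gene cluster show the word, in capitals on whichever strand it lies. Each is given 5′ to 3′ on the gene's strand in GRCm38.p6. Their places are chr13:67127978-67128227 on the plus strand for Zfp759, chr13:67194256-67194505 on the plus strand for Zfp455, chr13:67306413-67306662 on the minus strand for Zfp457 and chr13:67268995-67269244 on the minus strand for Zfp458. Zfp420 is at chr7:29859762-29860011 on the plus strand and Zfp566 at chr7:30090511-30090760 on the minus strand.
Zfp759: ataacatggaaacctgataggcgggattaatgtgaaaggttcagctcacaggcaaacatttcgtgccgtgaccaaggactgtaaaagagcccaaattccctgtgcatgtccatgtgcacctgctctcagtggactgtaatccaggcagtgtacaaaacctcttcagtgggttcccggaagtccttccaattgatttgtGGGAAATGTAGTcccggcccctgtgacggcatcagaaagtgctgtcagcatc
Zfp457: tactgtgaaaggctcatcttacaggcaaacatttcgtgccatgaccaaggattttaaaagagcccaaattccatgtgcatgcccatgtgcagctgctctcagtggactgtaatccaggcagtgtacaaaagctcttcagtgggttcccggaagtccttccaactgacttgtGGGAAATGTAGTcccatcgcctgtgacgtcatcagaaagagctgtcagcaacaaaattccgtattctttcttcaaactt
Zfp458: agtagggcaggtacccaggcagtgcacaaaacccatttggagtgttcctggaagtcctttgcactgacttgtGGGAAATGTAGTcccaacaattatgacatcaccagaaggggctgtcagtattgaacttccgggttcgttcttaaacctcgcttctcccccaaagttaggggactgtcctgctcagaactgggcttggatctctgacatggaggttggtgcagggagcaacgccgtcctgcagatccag
Zfp455: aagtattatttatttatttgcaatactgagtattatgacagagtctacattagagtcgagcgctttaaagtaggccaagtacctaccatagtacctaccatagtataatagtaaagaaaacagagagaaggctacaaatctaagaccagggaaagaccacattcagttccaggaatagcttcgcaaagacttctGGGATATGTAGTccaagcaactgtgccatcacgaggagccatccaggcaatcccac
Zfp420: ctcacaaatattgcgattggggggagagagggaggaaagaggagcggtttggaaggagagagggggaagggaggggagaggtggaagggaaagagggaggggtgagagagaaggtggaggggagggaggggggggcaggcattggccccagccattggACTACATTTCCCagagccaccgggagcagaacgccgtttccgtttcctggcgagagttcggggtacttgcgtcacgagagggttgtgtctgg
Zfp566: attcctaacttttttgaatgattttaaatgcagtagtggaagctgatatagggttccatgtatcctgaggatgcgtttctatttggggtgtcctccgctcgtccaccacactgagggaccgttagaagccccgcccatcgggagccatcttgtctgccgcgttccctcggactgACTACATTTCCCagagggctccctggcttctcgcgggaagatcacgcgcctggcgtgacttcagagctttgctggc
In the chromosome 13 sequences the word reads on the gene's strand, and in the chromosome 7 sequences on the opposite strand.

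Of all features 34.6% were higher and 24.2% lower, and of all tested members 18.1% and 34.2%. Of the 34 tested members with the word in a window, 4 were higher and 15 lower. Of the 166 tested members with a window but without the word, 34 were higher and 53 lower. Outside the chromosome 13 cluster and the 9-gene cluster, 16 tested genes had the word, and 4 were higher and 6 lower. Inside these clusters 18 had it, with 0 higher and 9 lower. The word was first noticed in the chromosome 13 cluster, where every tested gene lay below 0, so the counts inside test no link with it. Zfp455, Zfp458, Zfp759 and Zfp708 of that cluster were tested through the wild-type arrays alone. Zfp143, the mouse gene for the factor that binds this pattern, is itself a member, and its values are given because of the word. It was at -0.67 and -0.84 in wild-type and at -0.08 and -0.36 in deletion-mutant cells, a rise of 1.45-fold (limma, adjusted p = 0.0248) that did not pass without either wild-type array (adjusted p = 0.0649 and 0.115) or with detected probes. A match of letters is no measurement of binding, and binding was not tested.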

How the data were processed

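Total RNA was labelled with Cy3 and hybridised to 1-colour Agilent arrays, per the labels. Per the file headers, the authors' scanner files were made with Feature Extraction 10.10.1.1 on the mm9 build, and the processed intensity is corrected for background. A deposited table of log2 values equals the log2 of that intensity plus a constant for each array that sets the median, and served as an alternative.

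Control spots and outlier spots were left out, spots of a probe were averaged, and log2 intensities were taken minus each array's 75th percentile over gene probes. The brightest probe of a gene name stood for it. limma 3.58.1 (R 4.3.3) was fitted over all 18093 features without a block, with Benjamini-Hochberg adjustment at 0.05; it was tested on simulated data. With 2 arrays a group, 2 residual degrees of freedom remained, and the number of arrays limits the precision. Array names were matched to RefSeq (277 of 284 genes, 3 under another present name). Probe near-copies were found with blastn 2.17.0.

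Genes were named by rule: the 10 largest rises and falls that passed with groups apart and all arrays above background, up to 5 bounds per direction, the 4 largest changes of each list, and genes of clusters with at least 4 passing in a direction. Zfp703, Zfp423, Zfp592, Zfp687, Zfp207, Zfp143, Trim28, Setdb1, Atf7ip and the related genes of the chromosome 13 interval were added after their values were seen, as were Krt14, Itgam, Pecam1, the promoter words and the counts over cluster genes above background on all arrays. The members and lists were chosen with earlier results of these data known.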

Additional observations from a re-analysis of the deposited data

How the results depend on the processing

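The 127 genes that passed became 60 without a filter on dim probes, and leaving out an array gave 79 to 110 (79 without wild-type replicate 1, 82 without wild-type replicate 2). The 15 changes of at least 2-fold became 4 with normexp background correction and 24 probes with every probe by itself. The 44 higher genes became 83 with median scaling and with the authors' log2 values, 23 with the 75th percentile of detected probes, 69 with E1A spike-ins and 18 without a filter on dim probes, and 23 to 36 with an array left out (23 without wild-type replicate 1, 28 without wild-type replicate 2). The 83 lower genes became 50 with median scaling and with the authors' log2 values, 42 without that filter, and 54 to 75 with an array left out (54 without wild-type replicate 2). The members' median of -0.113 turned to 0.067 with median scaling and 0.068 with the authors' log2 values, and was -0.065 with normexp, -0.307 with detected probes and -0.031 with spike-ins. The median relative to all features, -0.179, was -0.123 with normexp, -0.134 with quantiles and -0.266 without the filter. The 63.9% of neighbouring pairs with the same sign became 52.8% with median scaling and with the authors' log2 values. The 45 lower genes in clusters became 29 with median scaling and with the authors' log2 values, 69 with detected probes, 23 without the filter, and 28 to 43 with an array left out (28 without wild-type replicate 2). The 11 higher cofactors became 17 with median scaling and with the authors' log2 values, 5 without the filter and 20 probes with every probe by itself. The cause of these shifts was not tested.

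Sign changes among 81 named genes were seen in genes that did not pass, and in Zfp207 with the mean of its probes (-0.09). With median scaling and the authors' log2 values Zfp606 (0.02), Zfp628 (0.14), Zfp708 (0.03), Zfp423 (0.18) and Atf7ip (0.13) turned. Quantiles turned Zfp146 (-0.03), Zfp580 (-0.11), Zfp423 (0.2) and Zfp708 (0.05), detected probes Zfp146 (-0.13), Zfp580 (-0.13), Setdb1 (-0.02) and Zfp790 (-0.15), spike-ins Zfp628 (0.04), Zfp423 (0.08) and Atf7ip (0.03), normexp Zfp708 (0.04) and Zfp423 (0.06), and the mean of a gene's probes Zfp628 (0.17) and Zfp790 (-0.08). Over the fits that leave out an array, Zfp580 ranged from -0.02 to 0.15, Zfp628 from -0.1 to 0.01, Zfp708 from -0.31 to 0.01, Zfp748 from -0.51 to 0.03, Zfp423 from -0.38 to 0.38 and Zfp790 from -0.06 to 0.16.

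The file headers carry a number that was 1 for both replicate 1 arrays and 2 for both replicate 2 arrays. Deviations of same-numbered arrays correlated at 0.0472, and 2 arrays a group cannot show whether they are paired. With the replicate number as a block 115 genes passed, 36 higher and 79 lower. In that fit 8 genes of the chromosome 13 cluster were lower, against 5 without the block. Counts of fingers and KRAB domains were not run, since no protein sequences were used here. A probe below background gives a bound at most, and 41 of the 284 genes were not tested for that reason.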
